A study of Mus musculus with 8 samples.

Results

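The 10 genes described here, H2-K1, H2-D1, B2m, Psmb8, Psmb9, Psmb10, Psme1, Tap1, Tap2 and Tapbp, encode the classical MHC class I molecules and the machinery that supplies them with peptides. They were found by their gene symbols in the annotation of the Affymetrix Mouse Genome 430 2.0 array, and they are 10 of 18194 genes named there. Together they had 27 of the 45101 probe sets, and 19 of these 27 reached a value of 100 on at least 2 of the 8 arrays. Each gene had at least 1 such probe set, so all 10 entered the test.

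RNA was measured on 2 arrays for each of 4 groups of cultured mouse cells. OP9 is a stromal line from mouse bone marrow, which the labels give as strain B6C3F1, a cross of C57BL/6 and C3H mice. It was cultured alone or with 230-238, a pre-B cell line. According to the study the OP9 cells of the co-culture experiment carried the fluorescent protein mStrawberry from a retrovirus, and the co-culture lasted a week. The study also used OP9 cells without mStrawberry, and the titles of the control arrays read only OP9. Were these plain OP9 cells, retrovirus and medium could not be told apart from the co-culture. In the study's co-culture experiment the control cells were kept in conditioned medium from the parallel co-culture. The stroma cells were then separated by FACS. NIH3T3, an embryonic fibroblast line, and MC3T3, an osteoblast-like line, are both labelled Balb/c, although as background NIH3T3 is generally traced to NIH Swiss embryos and MC3T3 to C57BL/6 calvaria. The replicates are called biological, but each group is a culture of 1 line. A p-value reflects only how arrays vary within groups, with the spread shared by all 4 groups. MC3T3 replicate 2 is described as sorted cells and MC3T3 replicate 1 as a culture.

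Values are normalized intensities of the arrays on a linear scale, called expression values here. The median value of an array lay between 41.77 and 44.99, and 34.3% to 36.3% of probe sets reached 100. The median difference between the arrays of a group was 0.14 on the log2 scale in NIH3T3 and between 0.07 and 0.09 in the other groups. Cxcl12, a chemokine of marrow stroma, had a mean of 20526 in OP9, 524 in MC3T3 and 22.7 in NIH3T3. The osteoblast genes Sp7 and Alpl stayed below 100 on all 8 arrays, those of MC3T3 included, and all 6 endothelial markers stayed below 100 as well.

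An MHC class I molecule is a heavy chain, such as the products of H2-K1 and H2-D1, bound to β2-microglobulin, the product of B2m, and to a short peptide from inside the cell. The peptides are cut by proteasomes, pumped into the endoplasmic reticulum by the TAP transporter and loaded with the help of tapasin. Interferons are known to raise the expression of these genes and to replace the constitutive catalytic subunits of the proteasome by those of the immunoproteasome.

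Tapbp, H2-K1, Psmb9, Tap1, Psmb8, Tap2 and H2-D1 lie in the mouse MHC on chromosome 17, while B2m is on chromosome 2, Psmb10 on chromosome 8 and Psme1 on chromosome 14. Promoter sequences were taken from RefSeq (build GRCm38.p6, a C57BL/6J genome) as windows from 250 bases before to 50 bases after each start site, and 9 of the 10 genes matched, Tap2 being the exception. H2-K1 and H2-D1 are shown because stretches of 60 bases upstream of their starts were identical at 59 positions. Capitals mark matches to the NF-kB consensus, first, and to the core of an interferon response element, second, which reads GAANNGAAA on the opposite strand.
H2-K1, chr17:34000414-34000473, minus strand: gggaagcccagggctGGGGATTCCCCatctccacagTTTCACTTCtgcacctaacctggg
H2-D1, chr17:35262908-35262967, plus strand: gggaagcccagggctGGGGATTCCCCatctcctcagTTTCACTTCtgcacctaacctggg

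B2m and Psmb8 are shown because B2m was the least and Psmb8 the most increased of the 10 genes in the co-culture described below. In B2m the capitals mark GAAANNGAA, an interferon response element core with wider spacing that was added to the search after the sequences had been seen, and then the NF-kB consensus. In Psmb8 they mark the GAS element TTCNNNGAA, the site known to be bound by STAT proteins.
B2m, chr2:122147533-122147585, plus strand: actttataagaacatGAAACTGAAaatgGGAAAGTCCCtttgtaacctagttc
Psmb8, chr17:34198083-34198121, plus strand: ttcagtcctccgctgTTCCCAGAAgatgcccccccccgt

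Psmb9 and Tap1 are transcribed away from each other, and the whole interval of 225 bases between their start sites is shown because both genes share it. It held no match to any of the motifs searched.
Psmb9 to Tap1, chr17:34187331-34187555, plus strand: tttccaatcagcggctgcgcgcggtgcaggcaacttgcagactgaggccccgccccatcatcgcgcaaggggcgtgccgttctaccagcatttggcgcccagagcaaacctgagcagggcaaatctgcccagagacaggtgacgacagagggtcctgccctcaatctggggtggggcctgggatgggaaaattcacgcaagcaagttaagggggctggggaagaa

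Both strands were searched. The NF-kB consensus was matched in 3 of the 9 windows, those of H2-K1, H2-D1 and B2m, against 8.5% of 32817 promoter windows. GAANNGAAA was matched in H2-K1, H2-D1 and Psme1, against 7.5% of all windows, and GAAANNGAA in B2m and Psme1, against 8.6%. In Psme1 these 2 matches overlapped each other and lay downstream of the start site. TTCNNNGAA was matched in Psmb8, against 8.3% of all windows. A match is a run of letters and was not tested as a binding site.

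Co-culture with 230-238 pre-B cells was compared with OP9 cells alone to ask whether pre-B cells alter gene expression in the stroma. Of the 10 genes, 7 rose at least 2-fold with an adjusted p below 0.05 (limma, Benjamini-Hochberg over all genes tested), namely Psmb8, Psmb9, Tap2, H2-K1, Psmb10, Tapbp and Tap1, and none fell. Psmb8 reached 100 on the co-culture arrays alone and so entered the test only through the group where it is high. Of the 9 other genes 6 rose. Of all 10083 genes tested, 2.71% rose and 2.97% fell by the same criteria. These shares are the background for each count of co-culture calls in a list of genes below. The median log2 difference was 1.52 over the 10 genes, 1.43 without Psmb8 and -0.05 over all genes tested. All 10 genes had a positive difference with an unadjusted p below 0.05 in limma. Of all 10083 genes tested, 1993 had a positive and 3091 a negative difference with such a p.

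Psmb8, Psmb9 and Psmb10 encode the catalytic subunits of the immunoproteasome, also known as β5i, β1i and β2i. Psmb8 read 88.6 and 87.2 in OP9 and 776 and 805 in co-culture. The OP9 arrays were below 100 and the co-culture arrays far above it, and the rise was 8.99-fold (log2 difference 3.17, SE 0.077, adjusted p of 5.2e-07 with limma). Psmb9 read 300.4 and 308 in OP9 and 1476 and 1402 in co-culture, a 4.73-fold rise (log2 difference 2.24, SE 0.14, adjusted p of 2.16e-05). Psmb10 went from 335 and 365 to 1089 and 1048, a 3.05-fold rise (log2 difference 1.61, SE 0.077, adjusted p of 7.05e-06). For each of these subunits the co-culture arrays differed from OP9 by more than replicates differed from each other.

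The constitutive subunits that these proteins replace are encoded by Psmb5, Psmb6 and Psmb7, and none of them was called. Psmb5 read 3078 and 3027 in OP9 and 2316 and 2242 in co-culture, a log2 difference of -0.42. This is 1.34-fold lower, with an adjusted p of 0.0016 with limma, and short of the 2-fold limit. Psmb6 had a log2 difference of -0.11 and Psmb7 of -0.04. Over all 42 other proteasome genes tested, which cover the constitutive catalytic subunits, the remaining 20S core, the 19S cap, and other activators and assembly factors, 0 were called in either direction by limma. Of all genes tested, 2.71% rose and 2.97% fell. The log2 differences of the 42 genes ran from -0.42 to 0.59 with a median of -0.08. Among them, 4 positive and 15 negative differences had an unadjusted p below 0.05. Psme1 encodes the α subunit of PA28, a proteasome activator. It read 2576 and 2446 in OP9 and 3681 and 3766 in co-culture, which is 1.48-fold with an adjusted p of 0.000709 and short of the 2-fold limit. The gene of its partner subunit, Psme2, had no probe set with that symbol alone and was not analysed here.

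**Figure D1:**
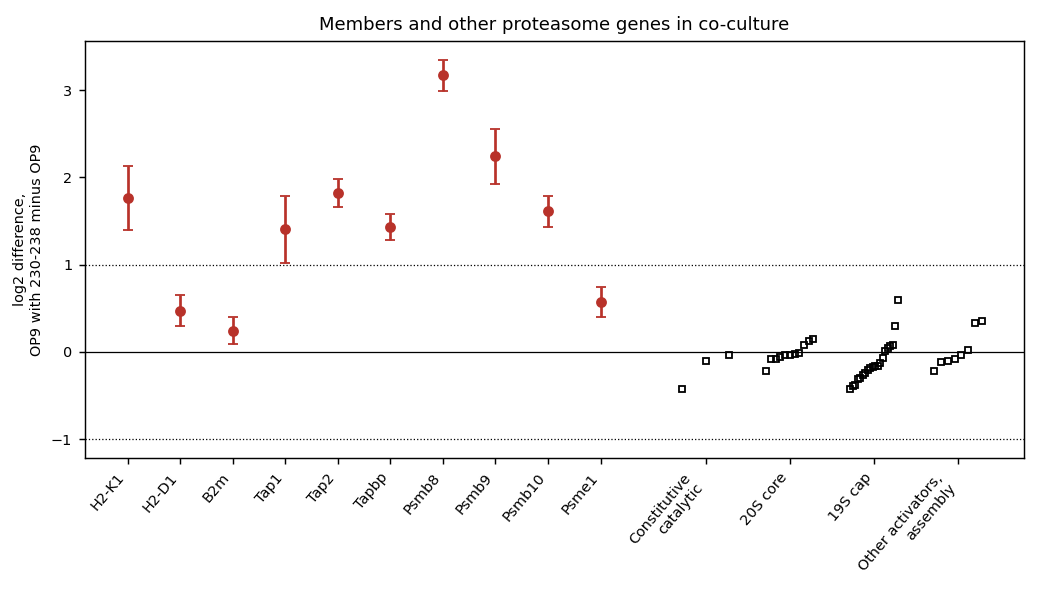
Log2 difference between OP9 cells with 230-238 and OP9 cells alone. Filled circles with bars are the 10 genes with their 95% confidence intervals from limma, open squares are the other 42 proteasome genes tested, sorted within each list, and dotted lines mark 2-fold. The 7 called genes lie above the upper dotted line and none of the 42 squares crosses either line.

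Tap1 and Tap2 encode the subunits of the peptide transporter. Tap2 read 601 and 592 in OP9 and 2040.5 and 2173 in co-culture, a 3.53-fold rise (log2 difference 1.82, SE 0.068, adjusted p of 2.65e-06). Tap1 read 187 and 193 in OP9 and 481 and 529 in co-culture, a 2.65-fold rise (log2 difference 1.41, SE 0.16, adjusted p of 0.000476). Tapbp encodes tapasin, which bridges TAP and the empty class I molecule. It read 2059 and 2115 in OP9 and 5657 and 5614 in co-culture, a 2.70-fold rise (log2 difference 1.43, SE 0.065, adjusted p of 5.83e-06). Its other probe set, 1450378_at, went from 748 and 680.3 to 1998 and 2122. Of the 13 other tested genes of peptide loading and trimming, among them Calr, Canx and Pdia3, which encode chaperones of the endoplasmic reticulum, limma called 0, with a median log2 difference of 0.23, while 8 positive and 0 negative differences had an unadjusted p below 0.05. Nearest to the 2-fold limit was Erap1, whose product trims peptides in the endoplasmic reticulum, at 138 and 148 in OP9 and 278 and 283 in co-culture, a log2 difference of 0.97.

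For the heavy chain genes the answer depended on the probe set. H2-K1, measured by its brightest probe set 1451931_x_at, read 152 and 109.5 in OP9 and 417 and 460 in co-culture, a 3.40-fold rise (log2 difference 1.76, SE 0.16, adjusted p of 0.00014). All 3 tested probe sets of H2-K1 were called higher when each probe set was tested on its own. The brightest probe set of H2-D1 over the 8 arrays, 1451784_x_at, read 385 and 420 in OP9 and 540.3 and 576 in co-culture. This is 1.39-fold (adjusted p of 0.00234 with limma) and below the 2-fold limit. Its high mean came from NIH3T3 and MC3T3, at 8016 and 3921. Within OP9 and co-culture 1450170_x_at was brighter, with means of 637 and 2113. For H2-K1, 1427746_x_at was likewise brighter there than 1451931_x_at, with means of 162 and 622. Of the 6 tested probe sets of H2-D1, 3 were nevertheless called higher, and 1425545_x_at rose 6.38-fold and 1450170_x_at 3.29-fold. The other called probe set, 1451683_x_at, read 34.6 and 23.7 in OP9, below the array median, and 62.3 and 53.9 in co-culture. Of all 9 heavy chain probe sets tested, 6 were called higher and 0 lower, beside 2.44% and 2.93% of all probe sets tested. The 9 differences were all positive, at 1.39-fold to 6.38-fold, although 1452544_x_at reached 100 on co-culture arrays alone. In addition, 1451683_x_at and 1426324_at reached 100 only in NIH3T3 and MC3T3 and stayed below it in OP9 and co-culture.

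B2m was already among the brightest genes. It read 12345 and 12396 in OP9 and 14710.3 and 14587 in co-culture, which is 1.18-fold with an adjusted p of 0.0235 and not a call. Its other probe set, 1452428_a_at, had a mean of 11469 in OP9 and 13429.5 in co-culture. With every probe set tested on its own, 13 of 19 probe sets of the 10 genes were called higher and 0 lower, against 2.44% higher and 2.93% lower among all 18656 probe sets tested. Psmb8 is among the 13.

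**Figure D2:**
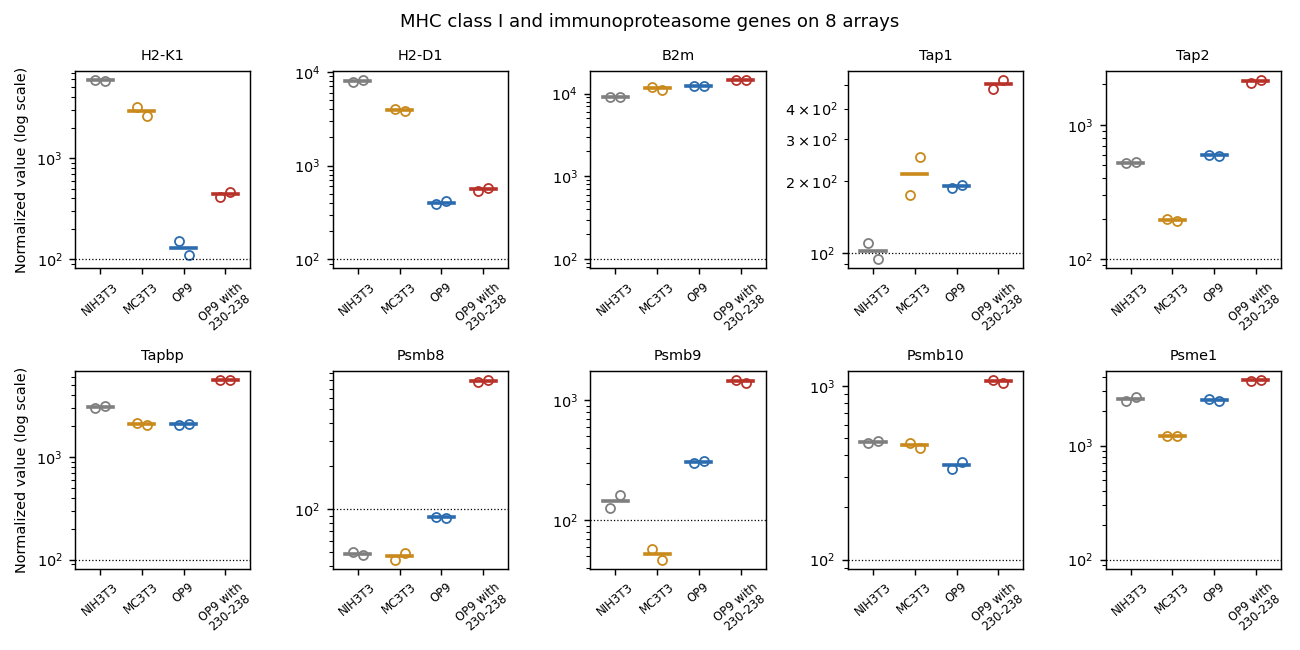
Normalized expression values of the 10 genes on the 8 arrays, 1 panel per gene, on logarithmic axes whose range differs between panels. Open circles are single arrays, horizontal lines are the means of 2 arrays, and the dotted line marks a value of 100. In 8 of the 10 panels the co-culture is highest, the exceptions being H2-K1 and H2-D1.

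Genes known to act upstream of this machinery were listed as class I transactivators. Of 13 tested 2 rose in the co-culture and 0 fell, beside 2.71% and 2.97% of all genes tested. In limma, 8 positive and 2 negative differences had an unadjusted p below 0.05. Irf1, a transcription factor induced by interferons, read 433 and 444 in OP9 and 1332 and 1290.5 in co-culture, a 2.99-fold rise (adjusted p of 7.42e-06). Relb, an NF-kB subunit, rose 3.19-fold from a mean of 119 to 379 (adjusted p of 9.25e-05). Nlrc5, the class I transactivator itself, stayed below 100 on all 8 arrays and was not tested. Its values were 45.6 and 48.9 in OP9 and 42.8 and 42.5 in co-culture.

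Genes of the interferon response were mostly higher in the co-culture. Of 16 tested, 13 rose and 0 fell, with a median log2 difference of 1.78, beside 2.71% and 2.97% of all genes tested. Of these 16, Gbp3, Ifit1 and Iigp1 reached 100 on the co-culture arrays alone, and of the 13 others 10 rose, with a median of 1.64. Oasl2, an antiviral gene, rose from a mean of 16.7, below the median of the OP9 arrays, to 194. No exact fold is given against so low a value. Outside the co-culture Oasl2 reached 100 only on NIH3T3 replicate 2, at 112. It too therefore entered the test only through the co-culture arrays, although it is counted among the 13 others. Ifit1 went from a mean of 87.1 to 672, and the immunity-related GTPase gene Ifi47 rose 5.08-fold from 90.0 to 458. Xaf1 rose 4.59-fold from 229.5 to 1054. Among 6 other class I genes tested, H2-M3, a nonclassical heavy chain gene, rose 4.20-fold from 91.6 to 383. H2-Q5 was also called, but it reached 100 on the co-culture arrays alone, at a mean of 110.2, and its OP9 mean of 29.5 was below the array median. Cd1d1, whose product presents lipids, fell by 1.17 on the log2 scale, from 770.02 to 341. Of 3 class II genes tested 1 rose, Cd74, the invariant chain gene, which went from a mean of 56.0 to 226 and reached 100 on the co-culture arrays alone.

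The summed values of blood cell markers were higher in the co-culture than in OP9 alone. They were highest in NIH3T3, cultured without pre-B cells, where Cd24a and Cd68 alone made up a large part of them. Over 14 pre-B cell markers with a named probe set, the summed value was 739.4 to 745.1 in OP9 and 1049 to 1059 in co-culture. It was 1291 to 1296 in NIH3T3 and 578 to 623 in MC3T3. Over 12 leukocyte and macrophage markers it was 508 to 529 in OP9 and 687 to 724 in co-culture. For these markers NIH3T3 had 910.5 to 992 and MC3T3 had 423 to 437. Cd68 alone read 523 and 541 in NIH3T3, against 121 and 129 in OP9 and 137 and 142 in co-culture. Among the pre-B markers, Cd24a went from 181 and 188 in OP9 to 299 and 322 in co-culture, and it read 507 and 479 in NIH3T3. Dntt, also on that list, read 31.4 and 32.0 in OP9 and 31.8 on both co-culture arrays. Vpreb1, part of the surrogate light chain, went from 25.8 and 21.6 to 77.7 and 76.0. Pou2af1 went from 8.07 and 7.95 to 36.0 and 33.8, and Ptprc, the gene of CD45, from 8.93 and 8.58 to 34.6 and 31.1. Vpreb1, Pou2af1 and Ptprc all stayed below 100. Of the 4 pre-B markers that were tested limma called 0, while 1 positive and 0 negative differences had an unadjusted p below 0.05. Of 4 tested leukocyte and macrophage markers 1 was called higher and 0 lower, while 2 positive and 1 negative differences had an unadjusted p below 0.05. The called marker, Coro1a, went from 25.9 and 23.9, below the array median, to 116 and 125 and reached 100 on the co-culture arrays alone. The macrophage marker Lyz2 had a mean of 92.5 in OP9 and 50.01 in co-culture (adjusted p of 0.000322, below 2-fold), and Tyrobp and Itgam stayed below 20 in both groups. The part of RNA from 230-238 cells in the results for the 10 genes was not tested, and 230-238 cells alone were not analysed here. In samples of many cells, a few cells with much RNA of a gene and many cells with little cannot be told apart. The markers of stroma, fibroblasts and osteoblasts had 0 of 8 called, with a summed value of 64256 to 66405 in OP9 and 63925 to 64182 in co-culture.

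The neighbours of these genes in the MHC were counted as well. Between Tapbp and H2-D1 on chromosome 17, 7 of the 10 genes and 42 other tested genes are annotated. Of the 7, 6 rose with a median log2 difference of 1.76, H2-D1 being the exception, whereas of the 42 others 0 rose and 1 fell, with a median of 0.06. The gene that fell, Hspa1b, encodes a heat shock protein and had a log2 difference of -1.20.

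The lines were compared in the same fit, and the OP9 arrays that served as control of the co-culture serve here too. For NIH3T3 and MC3T3 the study describes neither mStrawberry nor conditioned medium. Where they apply to the OP9 arrays, retrovirus, medium and sorting therefore cannot be told apart from the line in any comparison of OP9 with them. The median log2 difference over all genes tested was 0.16 between OP9 and NIH3T3, 0.12 between MC3T3 and NIH3T3 and 0.03 between OP9 and MC3T3. Quantile normalization brought these medians to within 0.01 of 0, and median scaling brought the first 2 to 0.23 and 0.21.

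OP9 was compared with NIH3T3, which does not support B cell development, to find what sets a supportive stroma apart. By the brightest probe sets, 1 of the 10 genes was higher in OP9 and 2 were lower, where 20.5% of all genes tested were higher and 10.3% lower. Psmb9 was higher, at 300.4 and 308 in OP9 and 127 and 162 in NIH3T3, which is 2.12-fold (adjusted p of 0.000163), and its log2 difference fell short of the limit with quantile normalization (0.89) and without NIH3T3 replicate 1 (0.91). H2-K1 was 45.4-fold and H2-D1 19.9-fold lower in OP9. The other 7 genes were not called. Tap1 came nearest at 1.86-fold higher (adjusted p of 0.0014) and became a call without NIH3T3 replicate 1, at a log2 difference of 1.01, and Psmb8 was 1.80-fold higher, although all values of Psmb8 in both lines were below 100. B2m was 1.37-fold higher in OP9, and Tapbp 1.48-fold and Psmb10 1.36-fold lower. Psme1 did not separate the lines, with 2438 and 2668 in NIH3T3, an adjusted p of 0.782 and a 95% interval of the log2 difference from -0.19 to 0.15.

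Between OP9 and MC3T3 3 genes were higher in OP9 and 2 lower, against 10.5% and 9.41% of all genes tested. Psmb9 read 57.9 and 46.8 in MC3T3, near the array median, where a fold is uncertain, and OP9 was 5.85-fold higher (adjusted p of 2.02e-06). Tap2 read 200.01 and 191 in MC3T3 and was 3.05-fold higher in OP9, and Psme1 read 1219.9 and 1222 and was 2.06-fold higher. H2-K1 was 22.3-fold and H2-D1 9.75-fold lower in OP9. Tap1 read 175 and 252 in MC3T3, the widest gap between replicates among the brightest probe sets of the 10 genes in that line, and these values enclosed those of OP9. Tapbp, at 2144 and 2061 in MC3T3, also overlapped with OP9 (adjusted p of 0.892, 95% interval of the log2 difference from -0.16 to 0.14).

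MC3T3 and NIH3T3 were compared as lines that share a strain label. Tap1 was higher in MC3T3 and H2-K1, H2-D1, Psmb9, Psme1 and Tap2 were lower, against 17.8% of all genes tested higher and 9.65% lower. Psmb9 was 2.75-fold lower (adjusted p of 3.26e-05) and Tap2 2.68-fold lower (adjusted p of 8.23e-07). The other 4 differences were close to the 2-fold limit, at 2.09-fold for Psme1, 2.06-fold for Tap1, 2.04-fold for H2-D1 and 2.03-fold for H2-K1. These 4 calls did not hold throughout. Without NIH3T3 replicate 2 the log2 difference was 0.93 for Tap1, -0.99 for H2-D1 and -0.998 for Psme1, and without MC3T3 replicate 2 it was -0.89 for H2-K1 and 0.78 for Tap1, all short of 2-fold. With median scaling H2-K1, H2-D1 and Psme1 fell short as well, and with quantile normalization Tap1 did. Psmb8 was below 100 in both lines, at 50.1 and 47.4 in NIH3T3 and 44.3 and 49.3 in MC3T3.

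**Figure D3:**
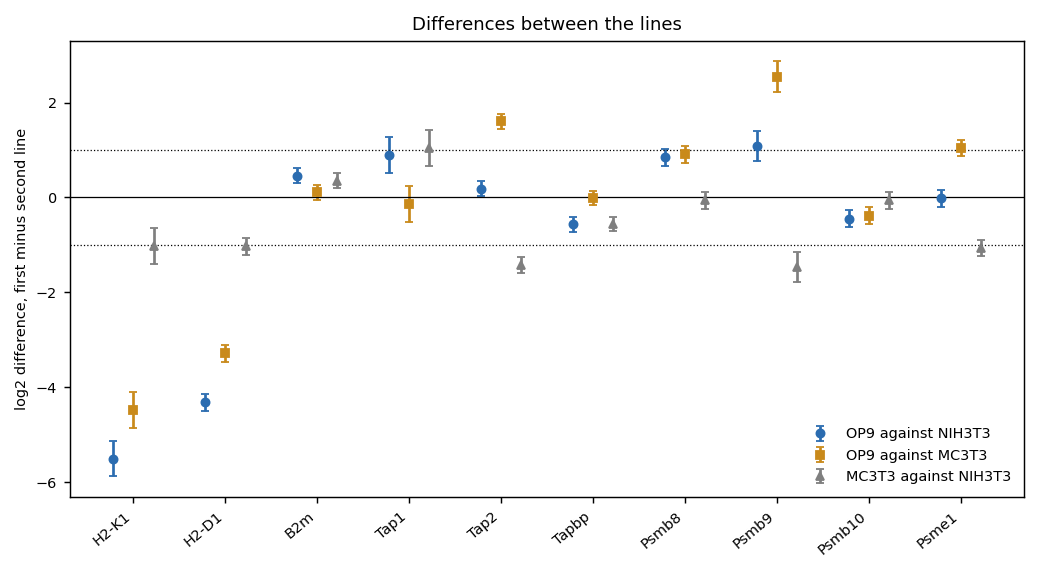
Log2 differences of the 10 genes between the 3 lines cultured without pre-B cells, with 95% confidence intervals from limma. Circles are OP9 minus NIH3T3, squares OP9 minus MC3T3 and triangles MC3T3 minus NIH3T3, all for the brightest probe set of each gene, and dotted lines mark 2-fold. H2-K1 and H2-D1 lie far below 0 in both comparisons of OP9, while most other genes stay within or close to the dotted lines.

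The differences between lines in H2-K1 and H2-D1 turned with the probe set. With 1425545_x_at, H2-D1 read 8302 and 8331 in NIH3T3, 4509 and 3956 in MC3T3 and only 96.9 and 67.5 in OP9, which is 103-fold lower in OP9 than in NIH3T3. With 1450170_x_at, the same gene read 55.2 and 39.8 in NIH3T3, 20.03 and 22.7 in MC3T3 and 691 and 583 in OP9. By that probe set OP9 was above NIH3T3 (adjusted p of 2.23e-06) and MC3T3 (adjusted p of 9.74e-07). No exact fold is given, because the MC3T3 values were below the array median and those of NIH3T3 close to it. Thus 4 of the 6 tested probe sets of H2-D1 were called lower in OP9 than in each other line, 1 was called higher and 1, 1452544_x_at, was not called. Among all probe sets tested on their own, 20.8% were higher and 11.7% lower in OP9 against NIH3T3, and 10.4% higher and 9.61% lower against MC3T3.

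H2-K1 had 2 of 3 tested probe sets called lower in OP9 than in each other line, and 1427746_x_at was not called. The latter read 142 and 189 in NIH3T3, 281 and 267 in MC3T3, 162 and 163 in OP9 and 737 and 507 in co-culture, so that the co-culture was the highest group. With 1425336_x_at, MC3T3 at 973 and 993 was above NIH3T3 at 633 and 608, the reverse of the order given by 1451931_x_at. The levels of these probe sets in MC3T3 relative to NIH3T3 therefore had no common direction.

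Of the 13 probe sets of H2-K1 and H2-D1, 11 are of a kind, _x_at, whose probes can also bind related transcripts. The annotation accession of 1450170_x_at was the RefSeq transcript of the C57BL/6J genome, and that of the 12 others was not. OP9 has a C57BL/6 parent by its label. MC3T3, which the label calls Balb/c, read close to 20 with this probe set. Whether alleles of H2-K1 and H2-D1 bind the probes unequally was not tested. Strain, cell type and the treatment of the OP9 cells cannot be told apart as reasons for a difference between lines in these genes. The co-culture was compared with OP9 cells alone, and the difference was positive with all 9 tested probe sets. Whether RNA from the pre-B cells, with their own alleles of these genes, added to this difference was not tested.

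**Figure D4:**
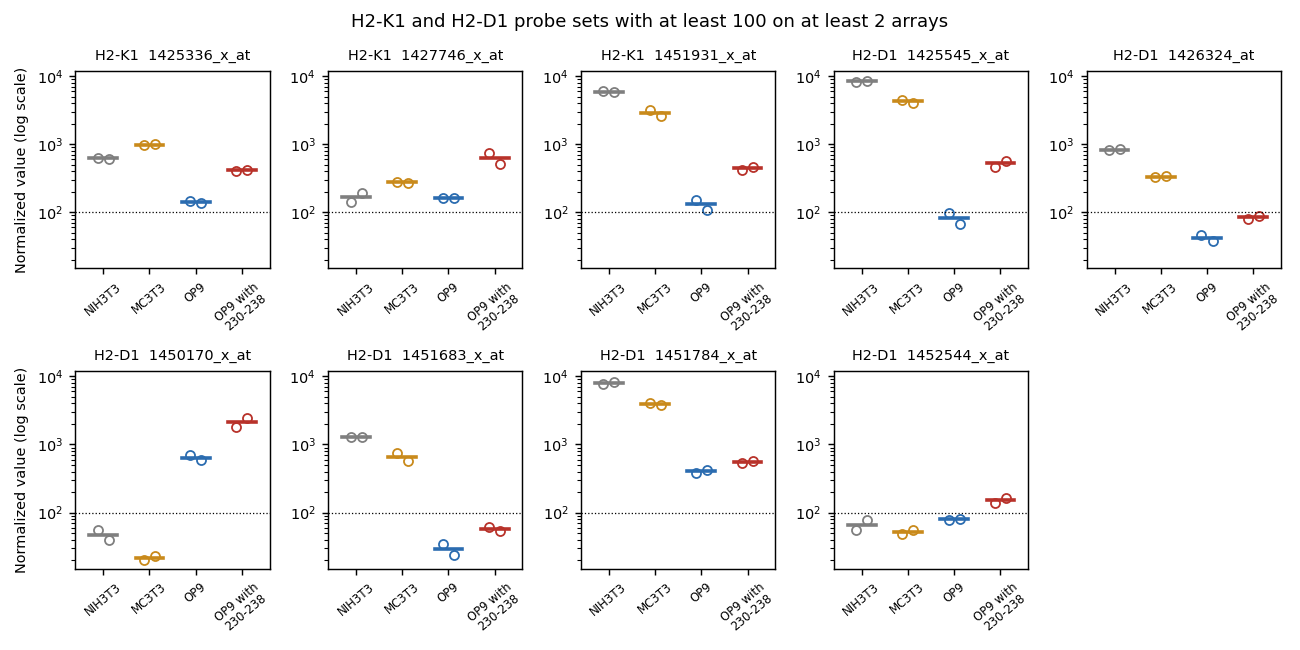
Normalized expression values of the 9 tested probe sets of H2-K1 and H2-D1 on the 8 arrays, on 1 common logarithmic axis. Open circles are single arrays, horizontal lines are the means of 2 arrays, and the dotted line marks 100. The order of NIH3T3, MC3T3 and OP9 changes between panels, and OP9 has the highest mean of the 3 lines with 1450170_x_at and 1452544_x_at, while the co-culture is above OP9 in all panels.

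Ranked by the means of their brightest probe sets, 8 of the 10 genes were highest in the co-culture. The share of all genes tested that were highest there was not counted. Below it the order was OP9, NIH3T3 and MC3T3 for Psmb8, Psmb9 and Tap2, but NIH3T3 and MC3T3 did not differ beyond their spread in Psmb8 (adjusted p of 0.494). For B2m the order was OP9, MC3T3 and NIH3T3, with OP9 and MC3T3 not separated (adjusted p of 0.201). For Psmb10 it was NIH3T3, MC3T3 and OP9, with NIH3T3 and MC3T3 not separated (adjusted p of 0.465). For Tapbp it was NIH3T3, MC3T3 and OP9, and here MC3T3 and OP9 were not separated. For Psme1 it was NIH3T3, OP9 and MC3T3, with NIH3T3 and OP9 not separated. For Tap1 it was MC3T3, OP9 and NIH3T3, with MC3T3 and OP9 not separated (adjusted p of 0.468).

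Co-culture cells compared with the other lines gave 5 genes higher and 2 lower against NIH3T3, where 19.3% of all genes tested were higher and 11% lower. Against MC3T3 the counts were 7 and 2, beside 11.6% and 11.3% of all genes tested. The 2 lower genes were H2-K1 and H2-D1 each time, by their brightest probe sets. Of their 9 tested probe sets, 3 were called higher and 5 lower in co-culture than in NIH3T3, and 3 higher and 6 lower than in MC3T3. Psmb9 was 10.04-fold higher in co-cultured OP9 than in NIH3T3. The levels of Psmb8 in both lines and of Psmb9 in MC3T3 were near the array median, so no exact fold is given for them.

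Other genes of the pathway were also compared between the lines. Of the 42 other proteasome genes, 2 separated OP9 from NIH3T3, both of the 19S cap, with OP9 2.93-fold higher for Psmc5 and 2.14-fold lower for Psmd5. Between OP9 and MC3T3 limma called 0 of 42, while 3 positive and 24 negative differences had an unadjusted p below 0.05. Irf1 read 1682 and 1511 in NIH3T3 and was 3.63-fold lower in OP9, and Irf9, a subunit of an interferon-activated transcription factor, was 5.92-fold higher in OP9. Of the genes of peptide loading and trimming, Nrd1 was 5.33-fold and Tapbpl, which encodes a tapasin-related protein, 2.38-fold lower in OP9 than in NIH3T3. Of 6 other class I genes tested, 4 were above and 1 below NIH3T3 in OP9, and 3 above and 1 below MC3T3, beside 20.5% higher and 10.3% lower, and 10.5% and 9.41%, of all genes tested. Cd1d1 had means of 770.02 in OP9, 43.4 in NIH3T3 and 54.2 in MC3T3, the last 2 close to the array median. Hfe, whose product takes part in iron balance, was 6.84-fold above NIH3T3 and 8.81-fold above MC3T3, and Fcgrt, the gene of the neonatal Fc receptor, 4.67-fold and 2.52-fold. Mr1 was 2.81-fold above NIH3T3, with no call against MC3T3. H2-M3 was 4.45-fold below NIH3T3 and 3.67-fold below MC3T3. Of 16 interferon response genes tested, OP9 had 4 above and 1 below NIH3T3, beside 20.5% and 10.3% of all genes tested. Against MC3T3 it had 2 above and 2 below, beside 10.5% and 9.41%. These genes had no common direction, since in each comparison 6 positive and 6 negative differences had an unadjusted p below 0.05 in limma.

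The genes outside the set whose 4 group means followed the median profile of the 10 genes most closely were Stat3, Oas1a, Noxo1, D130020L05Rik and Spsb1. Their distances from that profile were 0.09 for Stat3 and 0.13 for each of the others, as a root mean square of log2 values over 4 groups. Among the 10 genes themselves, Tapbp and Psmb10 were nearest to the profile at 0.19, and H2-K1 and H2-D1 farthest at 2.39 and 2.13.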

How the data were processed

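The deposited table gives linear intensity values, already normalized by the authors, for 45101 probe sets of the Affymetrix Mouse Genome 430 2.0 array on 8 arrays. The study's methods name RMA Express, affylmGUI and dChip, but the program behind these values is not stated there. Arrays have no read depth, and 2 arrays per group limit the precision. Samples were grouped by their labels, and no column was left out.

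Probe sets were named by the array's annotation, with 1 symbol for 34958 of them, more for 932 and none for 9211. Of the 34958, 34754 were matched by gene number to RefSeq genes, with 0 symbols changed. Those with more than 1 symbol stayed unnamed, and 64 control probe sets were left out. Each gene was represented by the probe set of highest mean log2 value (no pseudocount) over the 8 arrays, called the brightest above. A value of 100 or more on 2 or more arrays was required, which left 10083 genes. Group means were fitted to all 8 arrays with limma 3.58.1 in R 4.3.3, leaving 4 residual degrees of freedom, and p-values were adjusted by Benjamini-Hochberg over all genes tested. Calls required a change of 2-fold or more with an adjusted p below 0.05, and "rose", "fell", "higher" and "lower" without further qualification refer to calls. The fit was tested on simulated data. The study describes co-culture and control as parallel incubations, but replicate numbers were not used as pairs in the main fit. Deviations from group means correlated between -0.004 and 0.18 across groups, and at 0.03 between OP9 and co-culture. With 2 arrays per group this cannot decide whether arrays were paired.

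The 10 genes and all gene lists were chosen with earlier results of these data known. Named genes were the 10 genes in all comparisons, up to 4 called genes of largest fold per other list and comparison, Psmb5, Psmb6, Psmb7, Psme2, Nlrc5 and Irf1, and the 5 genes nearest to the median profile. Other genes named in the text were chosen after their values were seen. Alternatives covered the filter, normalization, pseudocount, arrays fitted, prior, replicate block, choice of probe sets, fold limit and each array left out.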

Additional observations from a re-analysis of the deposited data

Results flagged for a closer look

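The probe set 1424948_x_at carries the symbols of both H2-K1 and H2-D1 and entered none of the comparisons of genes. It read 106 and 98.05 in OP9 and 612 and 666 in co-culture, a mean of 639.2 above a control mean of 102, and it drew attention because the signal in an unused probe set lay above both control arrays. Tested on its own among all probe sets, it rose 6.27-fold (limma, adjusted p of 1.09e-05). In NIH3T3 it read 60.4 and 65.9 and in MC3T3 171 and 139.9, so the co-culture was the highest group. With 2 arrays per group, single arrays were not tested for standing apart.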

How the results depend on the processing

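The 7 calls in co-culture became 4 without _x_at, _s_at and _a_at probe sets, where only 6 of the 10 genes could be tested, 1 with a 5-fold minimum and 1 with the criteria of the study's co-culture panel (5-fold, a mean above 100 in 1 group, unadjusted p below 0.05). Leaving out each array gave 6 to 7, and the lower count arose because Psmb8 no longer reached 100 on 2 arrays when a co-culture array was left out. For OP9 against NIH3T3 the count of 3 became 9 with no minimum fold and 1 without H2-K1 and H2-D1 (3 to 3 with each array left out, although without NIH3T3 replicate 1 Psmb9 lost its call and Tap1 gained one). For OP9 against MC3T3 the count of 5 became 3 without _x_at, _s_at and _a_at probe sets, 3 with a 5-fold minimum, 3 with the panel's criteria and 3 without H2-K1 and H2-D1 (5 to 5). For MC3T3 against NIH3T3 the count of 6 became 3 with median scaling, 3 with the mean of a gene's probe sets, 0 with a 5-fold minimum or the panel's criteria, and 3 without NIH3T3 replicate 2 (3 to 6). The causes were not tested where none is named. Leaving out H2-K1 and H2-D1, and leaving out _x_at and _s_at probe sets while keeping _a_at, were chosen after seeing the data.

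Among single genes 12 values changed sign, none of them a call under the alternative. All are log2 differences. With median scaling Psme1 was 0.040 in OP9 against NIH3T3, and Psmb8 and Psmb10 were 0.029 and 0.025 in MC3T3 against NIH3T3. In the latter comparison Psmb8 was 0.011 with quantile normalization and H2-K1 was 0.055 with the mean of probe sets, which also gave Tapbp 0.11 in OP9 against MC3T3. With each array left out in turn, Psme1 ran from -0.088 to 0.042 in OP9 against NIH3T3, Tap1 from -0.41 to 0.12 and Tapbp from -0.039 to 0.018 in OP9 against MC3T3, and Psmb8 from -0.14 to 0.016 in MC3T3 against NIH3T3. Of the other single-gene values, 850 kept their direction and side of the threshold, 44 lost and 14 gained a call.

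With the replicate number as a block, the counts of calls stayed at 7, 3, 5 and 6 in these comparisons. The correlations between same-numbered arrays did not decide whether arrays were paired.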
